A study of Solanum lycopersicum with 24 samples.

Results

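The 200 genes described here are those whose transcript level peaked in the vegetative meristem of wild-type tomato (Solanum lycopersicum) relative to every later meristem stage sampled. They were chosen on the 12 WT libraries of the series: among 15915 genes whose highest WT stage mean reached 2 RPKM, out of 34075 in the table, genes were ranked by the log2 ratio of the vegetative mean to the highest later mean, with 0.5 RPKM added to both, and the top 200 were taken. RPKM is reads per kilobase of gene, scaled to the mapped reads of the library. The WT profile of these genes is therefore a description with no test, whereas the slful libraries were not used to choose them.

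WT plants and the slful mutant, for which the deposited legend gives the genotype ful1/ful2/mbp10/mbp20, naming 4 genes of the FRUITFULL-like group of MADS-box factors, were both grown in a greenhouse, and the sources used here do not give the WT cultivar, plant age or kind of mutation. The stages were 4: VM for vegetative, TM for transition, FIM for floral plus inflorescence meristem, and SFIM for that last structure on the first sympodial shoot. Each of the 24 libraries came from a pool of 30 to 60 meristems, and each of the 8 groups of genotype and stage had 3 biological replicates.

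A vegetative shoot meristem makes leaves while keeping a reserve of dividing, undifferentiated cells. At the transition to flowering it enlarges and domes, and in tomato it ends in a flower while growth goes on from lateral meristems: inflorescence meristems that form the truss, and sympodial shoots that repeat the cycle. Some kinds of regulator known from other plants are named below: KNOTTED-like homeobox (KNOX) proteins, of which some keep meristem cells undifferentiated in maize and Arabidopsis, and APETALA2-type proteins, which in Arabidopsis act in floral organ identity and include repressors of flowering. FRUITFULL-like MADS-box proteins promote the floral transition and meristem determinacy in Arabidopsis.

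Totals implied by the values ran from 29.36 to 32.66 M reads (M for mega) at VM and SFIM and from 12.93 to 90.37 M at TM and FIM, so that 1 read on a gene of 1 kb was worth 0.0111 to 0.0774 RPKM. The stage labels were checked with 2 genes outside the 200. Macrocalyx (Solyc05g056620), a MADS-box gene of the floral programme, ran from 1.31 to 3.77 RPKM in WT VM, from 44.8 to 95.4 in WT TM and from 162 to 181 in WT FIM, and FRUITFULL-like MADS-box 1 (Solyc06g069430) from 1.99 to 2.46 in WT VM and from 28.1 to 34.8 in WT FIM. In slful, macrocalyx ran from 3.95 to 5.07 RPKM at VM and from 241 to 274 at FIM. VM and SFIM values were deposited with a median of 10 decimals and TM and FIM values with 15, in both genotypes, so a comparison of TM or FIM with VM crosses 2 export formats, and a batch, if the formats mark one, cannot be told apart from stage there. SFIM against VM lies within 1 format. Because each library is a mixture of cells, fewer cells of a type and less RNA per cell cannot be told apart in any value below.

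In WT, the VM mean exceeded the highest later mean by a log2 ratio of 0.74 to 2.62 over the 200 genes, with a median of 0.96, and 84 genes reached a 2-fold difference. Their WT VM means ran from 2.01 to 1820 RPKM with a median of 10.2, close to the median of all 18786 genes tested, 10.3. The median fell to 3.5 RPKM at WT TM, 2.07 at FIM and 2.55 at SFIM, while that of all genes tested stayed between 9.76 and 10.6. In slful the corresponding medians were 10.1, 3.85, 2.15 and 2.97 RPKM. The median gene kept 45.3% of its VM level at WT TM, 25.4% at FIM and 28.4% at SFIM, and in slful it kept 44%, 24.7% and 34.2%. TM was the second highest stage for 143 genes in WT and 138 in slful, SFIM for 46 and 48, and FIM for 11 and 14.

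The limit at rank 200 did not fall at a gap. The last genes inside were Solyc10g078470, at 3.18, 3.44 and 3.74 RPKM in WT VM, and Solyc11g008440, at 15.2, 14.8 and 13.9. The next outside were Solyc08g066490, at 14.5, 17.4 and 15.1 RPKM, and Solyc08g075280, at 12.8, 16.9 and 15.6. The score was 0.7443 for the last gene in and 0.7442 for the next one out. VM was the highest WT stage for 4471 of the eligible genes, so the 200 are the upper end of a larger set.

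**Figure D1:**
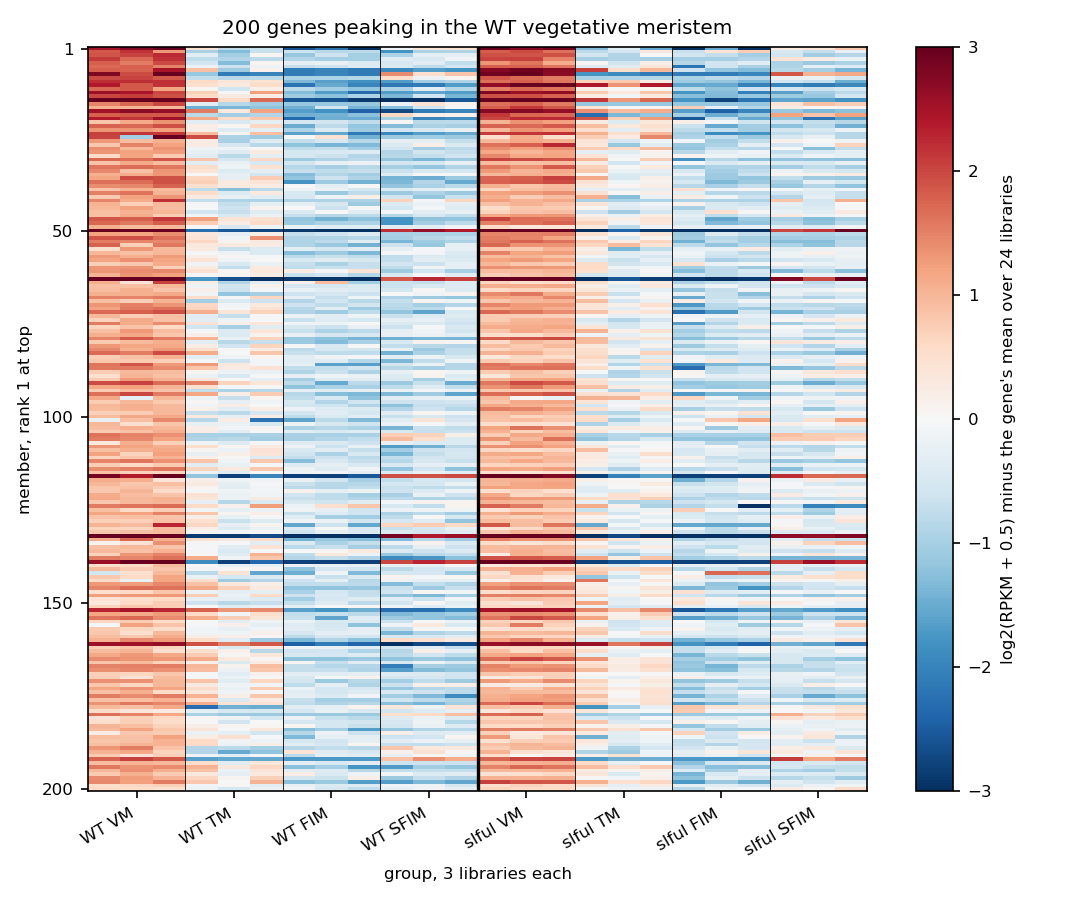
Each row is 1 of the 200 genes in order of rank and each column 1 of the 24 libraries, grouped by genotype and stage; colour gives log2(RPKM + 0.5) minus the gene's mean over all libraries, red above and blue below, with the scale ending at -3 and 3. The VM columns are the reddest in both genotypes, TM is intermediate for most genes, and scattered rows are red at VM and SFIM but dark blue at TM and FIM.

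The order found in WT was tested in the slful libraries with limma on log2(RPKM + 0.5), with p-values adjusted by Benjamini-Hochberg over all 18786 genes and calls at an adjusted p under 0.05; all 200 genes passed its filter of 0.5 RPKM in at least 3 libraries. From VM to TM, 178 of the 200 fell and 0 rose, where 17% of all genes tested fell and 15.8% rose. From VM to FIM, 170 fell and 0 rose, against 14.5% and 10.6% of all genes. From VM to SFIM, the comparison within 1 export format, 189 fell and 0 rose, against 28.2% and 19.7%. In all 3 comparisons together 160 of the 200 genes (80%) were lower than at VM, against 7.38% of all genes tested. The 3 comparisons share the slful VM libraries.

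The median log2 difference from VM in slful was -1.08 at TM, -1.69 at FIM and -1.41 at SFIM for the 200 genes, and 0.0, -0.07 and -0.05 for all genes tested. With the 2 genes at 0 reads in all slful TM libraries and the 10 at 0 in all slful FIM libraries set to 3 reads per library, the medians were -1.07 and -1.65. Every slful VM library lay above every later slful library for 168 of the 200 genes, against 12.1% of all genes tested. The ratio that ranked the genes in WT, computed in slful, had a median of 0.89, a middle range of 0.63 to 1.17 between the quartiles and extremes of -0.60 and 2.40, and 76 genes reached a 2-fold difference. FIM was the noisiest group in slful, with a median replicate SD of 0.233 on the log2 scale against 0.08 at VM; with its replicate 2 left out, 115 genes were called lower at FIM and 110 at all 3 later stages.

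**Figure D2:**
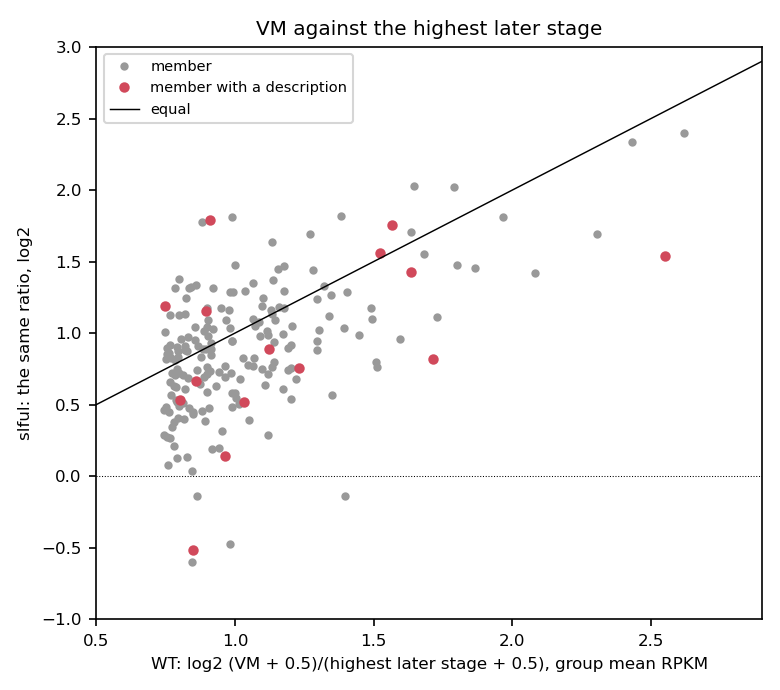
Each point is 1 of the 200 genes; the horizontal axis gives the WT log2 ratio of the VM mean to the highest later mean, which chose the genes, and the vertical axis the same ratio in slful, with the line of equality. All but 5 genes lie above the dotted line at 0, and most lie within 1 log2 unit of equality.

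Of the 200 genes, 15 (7.5%) carry a deposited description, against 216 of the 15915 eligible genes (1.36%) and 2.05% of all genes tested. Descriptions were given only for genes that the authors' sheets list as differing between slful and WT at some stage, so the described genes are not a sample of the 200 and the other 185 are known by their IDs alone. Among the described genes 11 were lower than at VM at all 3 later slful stages.

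The transcriptional regulators come first. APETALA2b (Solyc02g064960, rank 15) stood at 50.4, 49.6 and 54.9 RPKM in the WT VM libraries and at 22.5, 8.26 and 18.1 at TM. It was between 0.287 and 0.477 RPKM at WT FIM and between 0.174 and 0.485 at WT SFIM. The slful VM libraries read 51.9, 51.6 and 51.6 RPKM, those of TM 24.6, 13.7 and 18.5, those of FIM 1.19, 0.347 and 0.736, and those of SFIM 1.42, 1.4 and 1.14. The VM libraries of both genotypes lay above every TM library, and the TM libraries above every FIM and SFIM library. The slful differences from VM were -1.46 at TM (SE 0.22, limma adjusted p = 4.04e-05), -5.43 at FIM (SE 0.33, adjusted p = 9.04e-11) and -4.85 at SFIM (SE 0.17, adjusted p = 3.37e-15) on the log2 scale.

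APETALA2c (Solyc02g093150, rank 18), described as a gene of the same type, followed the same order. It read 33.7, 38.2 and 36.6 RPKM in WT VM, 16.9, 6.72 and 13.2 in WT TM, 1.39, 1.19 and 0.595 in WT FIM, and 0.411, 0.882 and 1.02 in WT SFIM. The values were 39, 39.7 and 36.1 RPKM in slful VM, 14.8, 10.7 and 12.4 in slful TM, 1.39, 0.607 and 0.991 in slful FIM, and 2.18, 1.84 and 2.01 in slful SFIM. The gene fell in slful by 1.57 at TM (SE 0.24, limma adjusted p = 4.06e-05), by 4.73 at FIM (SE 0.36, adjusted p = 2.94e-09) and by 3.95 at SFIM (SE 0.18, adjusted p = 2.32e-13). Both APETALA2 genes also fell from slful TM to FIM, by 3.97 (SE 0.37, adjusted p = 3.64e-06) for APETALA2b and 3.16 (SE 0.4, adjusted p = 0.000138) for APETALA2c. The second of these calls was lost without slful FIM replicate 2 (adjusted p = 0.0755).

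The gene described as knox-like 1 (Solyc06g072480, rank 161), named for the KNOX family, had the second highest VM level among the described genes. Its recovered length was 576 bases, and whether it encodes a homeobox protein was not checked. WT VM libraries read 240, 236 and 251 RPKM, WT TM 151, 119 and 146, WT FIM 6.87, 8.96 and 7.12, and WT SFIM 3.1, 5.58 and 5.99. In slful it read 246, 262 and 259 RPKM at VM and 242, 122 and 168 at TM, followed by 11.1, 8.87 and 7.05 at FIM and 14.4, 13 and 8.63 at SFIM. Its steep step lay between TM and FIM in both genotypes. From VM to TM in slful the difference was -0.58 (SE 0.23, limma adjusted p = 0.0596) and did not pass, whereas from TM to FIM the gene fell by 4.19 (SE 0.38, adjusted p = 3.64e-06). At SFIM it was 4.39 below VM (SE 0.18, adjusted p = 2.52e-14).

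A further pair of regulators was described. The bHLH transcription factor GBOF-1 (Solyc06g072520, rank 61), of the basic helix-loop-helix class of DNA-binding proteins, read 10.4, 11.1 and 11.3 RPKM in WT VM and 7.77, 7.89 and 8.33 in slful VM. Its later slful libraries lay between 1.23 and 5.55 RPKM, and it fell by 0.93 at TM (SE 0.19, limma adjusted p = 0.000799), 1.81 at FIM (SE 0.29, adjusted p = 7.49e-05) and 2.1 at SFIM (SE 0.15, adjusted p = 1.45e-10). WRKY transcription factor 81 (Solyc09g015770, rank 137), of a DNA-binding family known from defence and development, was more variable, at 8.72, 13.7 and 15.5 RPKM in WT VM and 6.15, 11.2 and 10.6 in slful VM. It read 3.21, 2.03 and 3.2 RPKM at slful TM, where it fell by 1.55 (SE 0.33, adjusted p = 0.00102). At slful FIM the difference of -1.1 (SE 0.49, adjusted p = 0.102) did not pass. At slful SFIM the libraries read 4.61, 6.76 and 5.71 RPKM, overlapping VM, and the call there (-0.63, SE 0.25, adjusted p = 0.0407) had adjusted p-values from 0.00436 to 0.17 over the alternatives.

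For context, 35 described genes carried a word for a transcription factor and 30 of them were tested. Of these, 5 fell and 7 rose from slful VM to TM, 2 fell and 9 rose to FIM, and 3 fell and 17 rose to SFIM, with GBOF-1 and WRKY81 among those that fell where they passed. The word search did not catch APETALA2b, APETALA2c or knox-like 1. All described genes were listed by the authors for a difference between genotypes, so these counts describe that list.

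**Figure D3:**
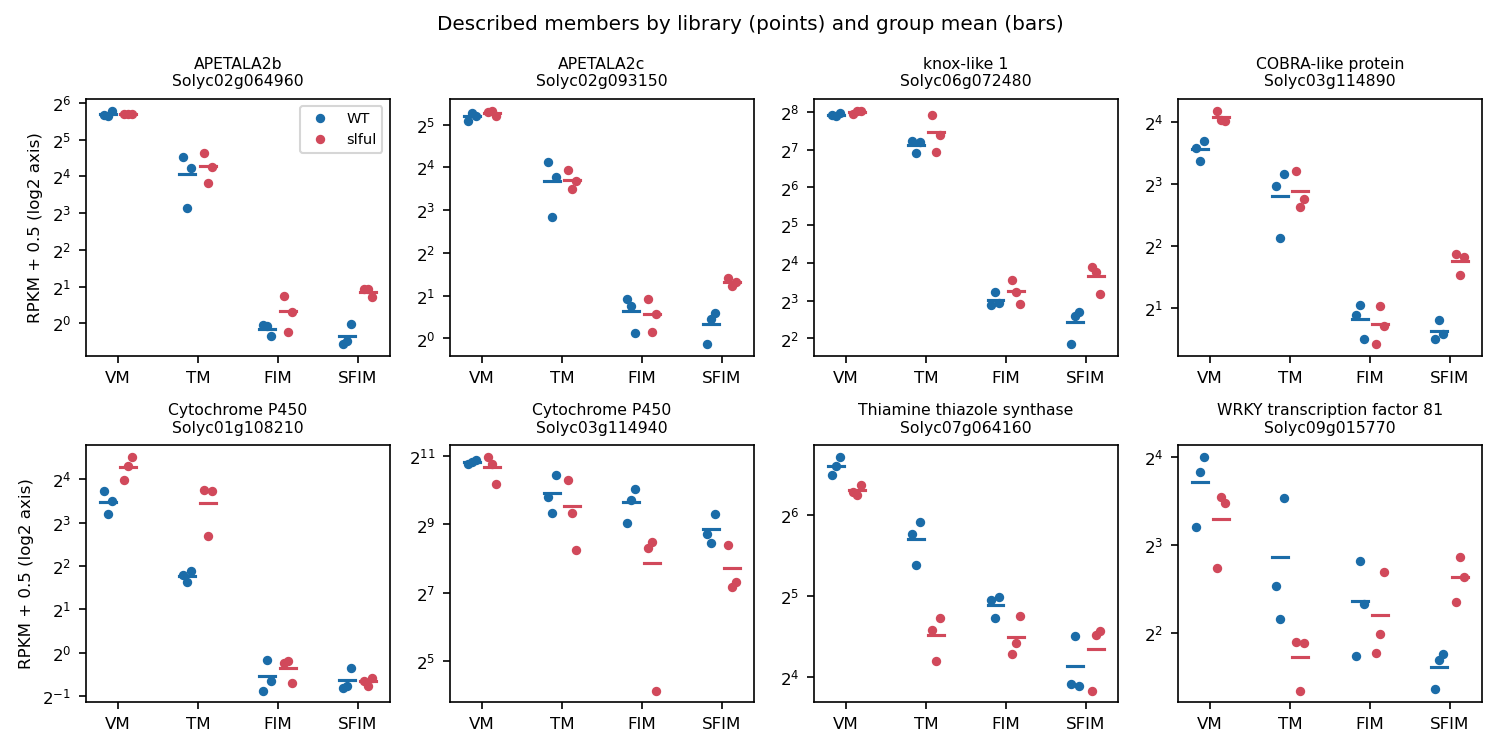
Points give RPKM + 0.5 on a log2 axis for each library of 8 described genes, WT in blue and slful in red, and bars the mean of each group of 3. APETALA2b, APETALA2c, knox-like 1 and the COBRA-like gene drop most steeply between TM and FIM in both genotypes, and at SFIM their slful points lie above all WT points.

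Enzymes form the second group. A gene described as Cytochrome P450, a class of oxygen-inserting enzymes, (Solyc01g108210, rank 11) read 12.7, 8.61 and 10.8 RPKM in WT VM and 2.98, 2.59 and 3.19 in WT TM, and under 0.4 RPKM in every WT FIM and SFIM library. Its slful libraries read 15.3, 19.2 and 22.3 RPKM at VM and 12.9, 5.92 and 12.7 at TM. They read 0.351, 0.375 and 0.113 RPKM at FIM and 0.138, 0.0897 and 0.162 at SFIM. The slful level stood above WT in every library at VM and TM and overlapped it later. In slful the gene fell by 0.88 at TM (SE 0.24, limma adjusted p = 0.0071), a call lost without slful TM replicate 2 (adjusted p = 0.195), and by 4.93 at SFIM (SE 0.18, adjusted p = 4.64e-15).

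The second gene described as Cytochrome P450 (Solyc03g114940, rank 124) had the highest level of all 200 genes. It read 1740, 1830 and 1890 RPKM in WT VM, 888, 650 and 1400 in WT TM, 522, 841 and 1050 in WT FIM, and 420, 352 and 634 in WT SFIM. The slful libraries spread more widely, at 2020, 1740 and 1170 RPKM at VM and 1270, 644 and 305 at TM. At FIM they read 319, 360 and 16.8 RPKM, and at SFIM 335, 144 and 158. It was lower than at VM by 3.02 at slful SFIM (SE 0.39, limma adjusted p = 1.78e-06). At slful FIM it was lower by 3.67 (SE 0.77, adjusted p = 0.00123), which did not pass without FIM replicate 3 (adjusted p = 0.0583), the library at 16.8 RPKM. The call at TM (-1.35, SE 0.51, adjusted p = 0.0485) rose to as much as 0.43 over the alternatives. Another gene of this description, Solyc04g071800, ranked 404 and lay outside the 200, with WT means of 7.45, 5.08, 1.46 and 0.786 RPKM from VM to SFIM.

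Thiamine thiazole synthase (Solyc07g064160, rank 114), which makes the thiazole part of vitamin B1 in plastids, read 89.8, 97.6 and 105 RPKM in WT VM, 54.1, 41.2 and 59.9 in WT TM, 30.4, 25.9 and 31.3 in WT FIM, and 14.6, 22.2 and 14.3 in WT SFIM. Its slful libraries read 78, 75.8 and 82.6 RPKM at VM and 23.5, 17.8 and 26 at TM, with 18.9 to 26.5 at FIM and 13.7 to 23.2 at SFIM. Slful thus reached by TM a level that it held at FIM and SFIM, with a difference from TM to FIM of -0.02 (SE 0.33, limma adjusted p = 0.983). The fall from VM was 1.81 at TM (SE 0.2, adjusted p = 7.43e-07) and 2.0 at SFIM (SE 0.15, adjusted p = 7.17e-10).

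Of 60 described genes in the list of redox and metabolic words, which holds both Cytochrome P450 genes, 52 were tested; 6 fell and 19 rose from slful VM to TM, 6 fell and 12 rose to FIM, and 12 fell and 17 rose to SFIM.

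Cell wall and other proteins make up the rest. The gene described as a glycine-rich cell wall structural protein (Solyc12g098225, rank 2) read 10.3, 13.1 and 6.89 RPKM in WT VM and 0.367 to 1.47 in all 9 later WT libraries. It stood at 10.2, 11.3 and 9.03 RPKM in slful VM and at 1.26 to 4.62 later in slful. It fell in slful by 2.15 at TM (SE 0.29, limma adjusted p = 8.98e-06), 1.65 at FIM (SE 0.43, adjusted p = 0.00769) and 2.28 at SFIM (SE 0.22, adjusted p = 2.84e-08), and the FIM call was lost without slful FIM replicate 2 (adjusted p = 0.148). In the list of 12 described cell wall genes, of which 11 were tested, 2 fell and 5 rose at slful TM, 2 fell and 2 rose at FIM, and 3 fell and 4 rose at SFIM.

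The COBRA-like gene (Solyc03g114890, rank 198), whose Arabidopsis relatives are membrane-anchored proteins that orient cellulose deposition, read 11.5, 9.91 and 12.5 RPKM in WT VM and 17.7, 15.8 and 15.7 in slful VM. At TM it read 7.3, 3.87 and 8.45 RPKM in WT and 8.8, 5.67 and 6.3 in slful. From FIM on it lay between 0.913 and 1.56 RPKM in WT, and in slful between 0.836 and 1.55 at FIM and between 2.41 and 3.15 at SFIM. It fell in slful by 1.21 at TM (SE 0.19, limma adjusted p = 6.95e-05), 3.36 at FIM (SE 0.29, adjusted p = 2.28e-08) and 2.33 at SFIM (SE 0.15, adjusted p = 3.43e-11).

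An F-box family protein gene (Solyc01g099970, rank 38), a family whose members pick substrates for ubiquitin ligases, read 4, 4.06 and 5.18 RPKM in WT VM and 2.99, 2.49 and 2.72 in slful VM, every slful library below every WT one. It fell at slful TM, FIM and SFIM, by 2.02 at SFIM (SE 0.12, limma adjusted p = 7.68e-12). A DUF506 domain-containing protein gene (Solyc06g054640, rank 17), named for a domain of unknown function, read 14.3, 13.9 and 13.4 RPKM in WT VM and 24, 30.3 and 25.5 in slful VM. Its later libraries lay between 2.09 and 6.36 RPKM in WT and between 3.34 and 11.4 in slful. The fall in slful was 1.76 at TM (SE 0.29, adjusted p = 7.75e-05), 2.07 at FIM (SE 0.43, adjusted p = 0.00114; 0.0859 without slful FIM replicate 2) and 1.79 at SFIM (SE 0.22, adjusted p = 7.68e-07).

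The last 3 described genes had unstable patterns. The gene described as Unknown protein (Solyc01g091490, rank 80) read 8.59, 11.4 and 10.3 RPKM in slful VM and 11.2, 3.57 and 4.54 in slful TM; it was called lower at all 3 later stages, and each call was lost under some alternative, with adjusted p-values reaching 0.258 at TM, 0.37 at FIM and 0.152 at SFIM. Kirola (Solyc04g007825, rank 101), named after a kiwifruit allergen, read 5.97, 13.5 and 20.1 RPKM in WT VM and 6.76, 12.8 and 16.6 in slful FIM, and none of its 3 slful differences from VM passed (limma adjusted p = 0.0862, 0.862 and 0.345). The gene described as Tumor-related protein (Solyc10g007870, rank 142) read 3.95, 8.69 and 12.3 RPKM in WT VM; in slful it was highest at FIM, at 5.79, 21.1 and 19.7 against 8.44, 13.1 and 10.5 at VM. Of its slful comparisons with VM, that at SFIM alone passed (-0.93, SE 0.37, adjusted p = 0.0432), and it reached 0.22 over the alternatives.

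The defence word list held 30 described genes, WRKY81 among them; of 28 tested, 4 fell and 5 rose at slful TM, 3 fell and 5 rose at FIM, and 8 fell and 5 rose at SFIM. None of the 15 described genes was in the lists for photosynthesis, flavonoid and phenylpropanoid synthesis, hormones, transport, stress and chaperones, kinases and receptors, chromatin, or lipids and wax. The 185 genes without a description could not enter any list, so their classes are not known here.

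Among genes without a description, rank 1 was Solyc05g012580. It read 21.3, 25.4 and 37.6 RPKM in WT VM, 4.78, 1.76 and 1.97 in WT TM, 0.149, 0.361 and 0 in WT FIM, and 3, 4.6 and 4.84 in WT SFIM. The slful libraries read 33.9, 25.3 and 28.2 RPKM at VM and 0 to 6.4 at the later stages, with falls of 3.97 at TM (SE 0.32, limma adjusted p = 4.46e-09) and 2.41 at SFIM (SE 0.24, adjusted p = 4.56e-08). This gene is 213 bases long by the length recovered from its RPKM steps. Solyc02g005607, rank 3, read 15.2, 16.7 and 19.6 RPKM in WT VM and 15.3, 15.1 and 15.5 in slful VM, and between 1.44 and 3.93 in all 18 later libraries of both genotypes. It fell in slful by 2.38 at TM (SE 0.24, adjusted p = 1.19e-07), 2.66 at FIM (SE 0.35, adjusted p = 8.6e-06) and 2.73 at SFIM (SE 0.18, adjusted p = 6.12e-11).

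The decline had more than one shape. VM exceeded TM, and TM exceeded FIM, in the means of 176 genes in WT and 164 in slful. In 43 genes the WT TM mean was still at least 2-fold above both FIM and SFIM, with 0.5 added; 48 genes had this shape in slful and 35 in both. The 43, a grouping made after the values were seen, include 5 described genes: APETALA2b, APETALA2c, knox-like 1, Solyc01g108210 and the COBRA-like gene. In the slful libraries 34 of the 43 fell from TM to FIM, and 16 of the other 157, where 1.99% of all genes tested fell. Without slful FIM replicate 2 these counts were 4 and 0, and without its replicate 3 they were 17 and 4. They were 27 and 6 without slful TM replicate 3, and 39 and 34 without slful FIM replicate 1.

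The most abundant of the 43 was Solyc01g091010, which has no description. It read 359, 409 and 363 RPKM in WT VM, 252, 185 and 202 in WT TM, 23.4, 20.9 and 26.3 in WT FIM, and 14.8, 14.9 and 19.2 in WT SFIM. In slful it read 417, 436 and 415 RPKM at VM and 198, 136 and 200 at TM, then 12.3, 16.1 and 23 at FIM and 25.1, 22.5 and 20.1 at SFIM. It fell from slful TM to FIM by 3.37 on the log2 scale (SE 0.24, limma adjusted p = 5.68e-08).

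Over all 200 genes, 50 fell and 2 rose from slful TM to FIM, against 1.99% and 1.43% of all genes tested. This comparison lies within 1 export format and rests on the noisiest group: the count of falls was 33 without slful TM replicate 3. It was 21 when FIM replicate 3 of slful was left out and 4 when FIM replicate 2 was. The 2 that rose are Solyc02g091690, at 2.65, 2.48 and 3.4 RPKM in slful TM and 5.52, 5.16 and 6.85 in slful FIM (0.92, SE 0.23, limma adjusted p = 0.0324), and Solyc07g053390, at 2.03, 3.87 and 6.81 and then 15, 11 and 10.7 (1.55, SE 0.41, adjusted p = 0.0381).

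A second shape followed the export format. In 12 genes both the VM and the SFIM mean were at least 2-fold above TM and FIM in both genotypes; over all genes tested 0.793% had this pattern and 0.979% the opposite one. Solyc03g078580 read 50.1, 63.6 and 40 RPKM in WT VM and 32.8, 23.6 and 26.8 in WT SFIM, but no more than 0.214 in any WT TM or FIM library. In slful it read 44.1, 44.6 and 48.6 RPKM at VM and 28.7, 27.8 and 30.9 at SFIM, with 4 reads in all at TM and 0 at FIM. Solyc09g097800 read 59.4, 62.6 and 64.4 RPKM in WT VM, 23.1, 32 and 26.8 in WT SFIM, and at most 0.578 between them. Solyc10g081040 (rank 8), at 14.6, 7.92 and 20.3 RPKM in WT VM and 5.27, 2.55 and 3.4 in WT SFIM, had the same form.

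The median length of these 12 genes was 471 bases, against 1083 for the 200 and 1511 for all eligible genes, and none carries a description. For them stage and export format cannot be told apart. Without the 12, 166 of 188 genes fell in slful at TM, 158 at FIM and 179 at SFIM, and 150 of 188 at all 3. The 2-fold limit left low genes of similar form among the 188. An example is Solyc02g085933, which averaged 2.97, 0, 0 and 1.28 RPKM from slful VM to SFIM. Within 1 format, from slful VM to SFIM, Solyc03g078580 fell by 0.64 (SE 0.12, limma adjusted p = 0.000149), Solyc09g097800 by 1.05 (SE 0.18, adjusted p = 7.6e-05) and Solyc10g081040 by 1.52 (SE 0.24, adjusted p = 2.41e-05). Of the 12 genes, 10 were called lower at all 3 later slful stages. Solyc03g082805 (means of 1.47 RPKM at slful VM and 1.22 at slful SFIM) and Solyc01g090050 (5.81 and 4.72) were not called lower at SFIM.

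**Figure D4:**
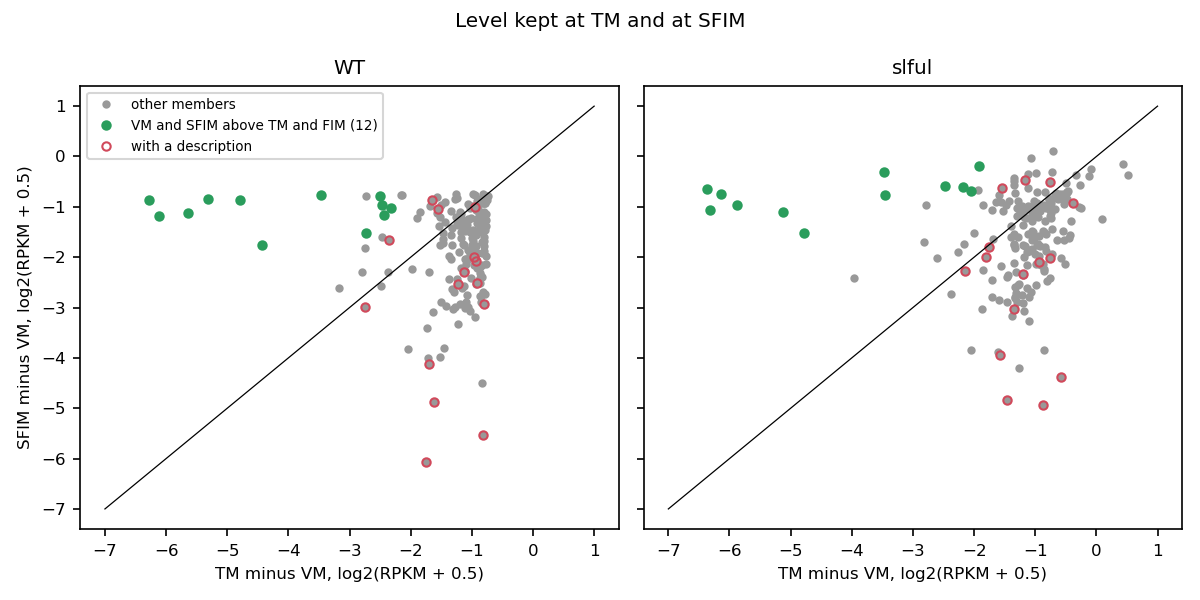
Each point is 1 of the 200 genes in WT (left) or slful (right), placed by its mean log2(RPKM + 0.5) difference from VM at TM (horizontal) and at SFIM (vertical), with the line of equality. The 12 genes high at VM and SFIM (green) lie above the line of equality and to the left of most others, some of them far to the left. Described genes (open red circles) such as APETALA2b reach the bottom with a TM difference under 2 log2 units.

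The 200 genes were shorter than eligible genes as a whole, with a median length of 1083 bases and quartiles of 775 and 1457 against 1511, 1020 and 2173, and 42% against 24% were under 1 kb. Lengths were recovered from the values. By the chromosome number in their IDs, 34 (17%) lay on chromosome 1, which held 12.9% of eligible genes, and chromosomes 2 to 12 held 9 to 22 each. In 10 cases consecutive genes of the 200 were within 5 places of each other when all IDs of the table were sorted. That order follows the chromosome only as far as the IDs do. How many such cases another 200 genes would give was not computed, so the count does not show clustering.

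These neighbours did not always share a profile. Solyc04g054790 read 80.2, 85.3 and 69.3 RPKM in WT VM and 14.1 to 21.9 at the later WT stages, and the next ID, Solyc04g054800, read 147, 144 and 168 and then 32.1 to 79.1. Both fell at all 3 later slful stages, as did Solyc04g054740, 4 places before the first. The pair of knox-like 1 and GBOF-1, also 4 places apart, differed in shape: at WT FIM knox-like 1 averaged 7.65 RPKM of its 242 at VM, and GBOF-1 4.47 of 10.9. Solyc09g097780, 2 places from Solyc09g097800, averaged 89.3, 40.5, 27.9 and 26.5 RPKM from WT VM to SFIM and did not share its neighbour's near absence at TM and FIM. Since the sources used here do not give strandedness, reads of overlapping neighbours could not be told apart.

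Differences between genotypes at 1 stage are described and not tested, because each rests on WT libraries that also chose the genes. At VM the median slful minus WT difference was -0.02 on the log2 scale (0.01 for all genes tested), at TM 0.06 (-0.02), at FIM 0.03 (-0.07) and at SFIM 0.2 (0.02). At SFIM 157 of the 200 genes were higher in slful and 43 lower in the means. All 3 slful SFIM libraries lay above all 3 WT SFIM libraries for 63 genes (31.5%) and below for 7 (3.5%), against 11.8% and 6.37% of all genes tested. The median log2 level of the 200 genes was 1.70, 1.81 and 1.88 in the slful SFIM libraries and 1.53, 1.66 and 1.55 in the WT ones, while that of all genes tested lay between 3.34 and 3.40 in these 6 libraries.

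Leaf material can carry vegetative transcripts, and 7 described genes with photosynthesis words, such as chlorophyll or photosystem, were summed as a check. None was among the 200, and all were listed by the authors for a genotype difference. The words did not include chloroplastic, which is in the description of thiamine thiazole synthase, a member of the 200. Their summed level was 17.4 to 31.4 RPKM in slful SFIM and 7.57 to 11.3 in WT SFIM, with 7 of 7 means higher in slful, as were most means of the 200 genes; 1 of the 7 was at 0, in 1 library, and the part of leaf transcripts in that difference was not tested. The sums were 19 to 36.6 RPKM in WT VM, 57.9 to 173 in WT TM and 37 to 83.5 in WT FIM, and in slful 25.2 to 38.1 at VM, 56.1 to 61.7 at TM and 27.6 to 39.1 at FIM. From VM the sums were thus higher at TM in both genotypes, while the 200 genes were mostly lower. At WT SFIM the sums were below VM, as the 200 genes were. The 7 genes were listed for a genotype difference and are no measure of leaf content across stages. The part of leaf transcripts in the stage profile of the 200 genes was not tested. Other marker sums also differed between the genotypes at SFIM, but their genes too were all listed by the authors for a genotype difference. A difference in these sums therefore cannot be read as a measure of RNA quality, stress or stage. The 4 described genes with words for RNA quality or stress summed to 13 to 15.6 RPKM in slful SFIM and 9.93 to 10.6 in WT SFIM, without overlap. The 8 described genes with FRUITFULL, macrocalyx or MADS in their description summed to 444 to 464 RPKM in slful SFIM. In WT SFIM they summed to 384 to 407, again without overlap. They did not all rise after VM: Solyc01g092950 averaged 137 RPKM in WT VM and 42.5 in WT SFIM. Their sum is therefore not a measure of stage alone. Among the 8, macrocalyx overlapped, at 232 to 253 RPKM in slful SFIM and 233 to 243 in WT SFIM. FRUITFULL-like MADS-box 1 was lower in slful SFIM, at 8.55 to 9.38 RPKM against 19.7 to 23.1. It was also lower in slful at FIM, at 10.7 to 11.8 RPKM against 28.1 to 34.8. This gene is of the FRUITFULL-like group named in the slful genotype, so its level is no measure of stage between genotypes. The 5 trichome and terpenoid genes overlapped, at 1.35 to 5.59 RPKM in slful SFIM and 1.29 to 2.4 in WT SFIM. The part of stress or exact stage in the SFIM difference was not tested.

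**Figure D5:**
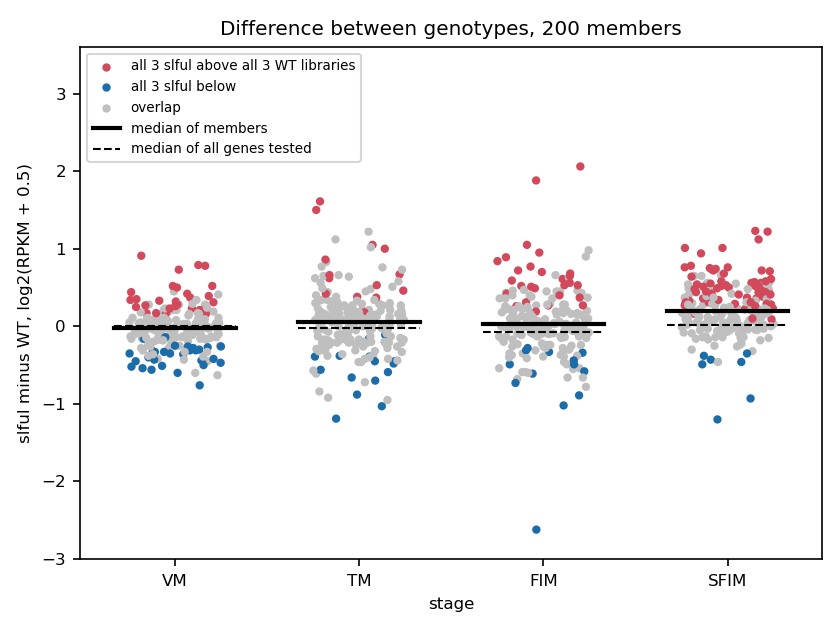
Points give slful minus WT in mean log2(RPKM + 0.5) for each of the 200 genes at each stage, red where all 3 slful libraries lay above all 3 WT libraries, blue where all lay below and grey where they overlapped; solid bars are medians of the 200 genes and dashed bars those of all genes tested. The solid bar is at 0.2 at SFIM, where red points are most frequent, and within 0.06 of 0 at the other stages.

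Large genotype differences, at least 2-fold and without overlap of the libraries, involved at most 5 of the 200 genes per stage and direction. At TM, FIM and SFIM their shares were above those of all genes tested in both directions. At VM 0 of the 200 genes were that much higher or lower in slful, where 0.303% and 0.0479% of all genes tested were. At TM 4 were higher (2%, against 0.399% of all genes tested) and 2 lower (1% against 0.202%). At FIM 3 were higher (1.5% against 0.538%) and 2 lower (1% against 0.266%). At SFIM 5 were higher (2.5% against 0.293%) and 1 lower (0.5% against 0.0532%). The authors' deposited tables list 0 of the 200 genes at VM, where they list 0.382% of all genes in the table, 4 at TM (0.364%), 6 at FIM (0.634%) and 6 at SFIM (0.355%). Of the listed genes 2 at TM, 4 at FIM and 5 at SFIM are higher in slful. These shares are over all genes, expressed or not, whereas the 200 were required to be expressed in WT.

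At TM the genes higher in slful were Solyc01g108210 (means of 10.5 against 2.92 RPKM), the DUF506 gene (7.53 against 2.31), Solyc10g076410 (10.7 against 4.86) and Solyc04g076010 (2.26 against 0.743). Solyc01g108210 and the DUF506 gene were also higher in every slful VM library, by 0.79 and 0.91 on the log2 scale, less than 2-fold. Thiamine thiazole synthase was lower at TM, at 22.4 RPKM in slful against 51.7 in WT, and so was WRKY81, at 2.81 against 6.77. WRKY81 stood the other way at SFIM, at 5.69 RPKM in slful against 2.56 in WT. The authors' deposited table for TM gives a log2 fold change of 1.85 for Solyc01g108210 and -1.19 for thiamine thiazole synthase.

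At FIM the 3 higher genes were Kirola (12 RPKM in slful against 2.78 in WT), Tumor-related protein (15.5 against 3.18) and Solyc01g014100 (0.725 against 0.0782). Solyc01g014100, of 472 bases, rested on few reads. Its FIM libraries read 1.1, 0.585 and 0.493 RPKM in slful and 0.0671, 0.109 and 0.0587 in WT. The lower genes at FIM were GBOF-1 (1.99 against 4.47 RPKM) and the Cytochrome P450 gene Solyc03g114940 (232 against 804). Solyc03g114940 was also lower at SFIM, at 212 against 469 RPKM.

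The other 4 genes higher in slful SFIM, beside WRKY81, were all among the 43 whose WT TM mean was at least 2-fold above FIM and SFIM. APETALA2b averaged 1.32 RPKM in slful against 0.292 in WT, APETALA2c 2.01 against 0.772, knox-like 1 12 against 4.89, and the COBRA-like gene 2.88 against 1.05. On the log2(RPKM + 0.5) scale these differences were 1.22, 1.01, 1.23 and 1.12. Each slful SFIM mean was a small part of its slful VM mean of 51.7, 38.3, 256 and 16.4 RPKM. The authors' deposited table for SFIM gives log2 fold changes of 2.14, 1.35, 1.27 and 1.41 for the 4 genes.

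In slful the VM mean was the highest of the 4 stages for 195 of the 200 genes. The 5 exceptions were Solyc06g009140, Solyc10g076410, Solyc04g054500, Solyc08g008370 and the Tumor-related protein gene. Solyc06g009140 read 5.34, 0.208 and 11.3 RPKM in WT VM, so its place among the 200 rests on 2 libraries, and 1.57, 2.6 and 1.55 in slful VM. Solyc08g008370 read 14.5, 8.48 and 22.8 RPKM in WT VM, and 31.1, 9.57 and 12.8 in slful TM against 10.8, 13.1 and 10.8 in slful VM. Of all 200 genes, 7 were called lower than VM at 0 of the later slful stages, 9 at 1 and 24 at 2.

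Libraries within TM also differed for the set as a whole. The median log2 level of the 200 genes was 2.15, 1.70 and 1.93 in WT TM replicates 1, 2 and 3, and 2.34, 1.80 and 2.12 in slful. In WT the lowest of these, replicate 2, had the highest macrocalyx level, 95.4 RPKM against 44.8 and 62. In slful TM macrocalyx read 134, 120 and 108 RPKM in replicates 1, 2 and 3, so the library lowest for the 200 genes was not the one highest for macrocalyx. The part of the exact stage sampled in these differences was not tested.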

How the data were processed

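Per the labels' protocols, RNA from pooled meristems was column-purified, treated with DNase and made into TruSeq libraries; strandedness, aligner and build are not given in the sources used here. Values for 34075 genes were deposited by the authors in RPKM, in a table whose name speaks of raw counts; no further processing step is recorded in its header. The deposited comparison sheets, made by the authors, hold p-values, log2 fold changes, signed fold changes (other units) and the higher group mean in RPKM; the test behind them is not stated.

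Whole reads and gene lengths were recovered from the RPKM steps: all 23295 genes above 0 in at least 4 libraries gave whole reads (100%; largest distance 0.00301 reads). At 1 kb, 3 reads equal 0.0332 to 0.232 RPKM. Such limits cover counting error only.

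Limma 3.58.1 in R 4.3.3 was fitted to log2(RPKM + 0.5), a scale on which changes of low genes are understated, for the 18786 genes that reached 0.5 RPKM in 3 or more libraries. One fit held all 24 libraries, with 8 group means, 1 weight per group (0.261 for slful FIM to 2.05 for slful VM) and a variance trend; tests were 2-sided, and the fit was tested on simulated data. Samples were grouped by their titles. Python 3.11.15, numpy 2.4.6, pandas 2.3.3 and matplotlib 3.10.9 did the rest.

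The 200 genes, the word lists, the named genes and the tests were chosen with earlier results of these data known. Named in full are the 3 top ranks, all described genes, those with the largest genotype differences and the genes next to the rank limit; further genes without a description were picked after their values were seen. Alternatives changed the value added, the filter, the weights, the libraries fitted, the scaling, the model (voom on recovered reads) and single replicates. No gene ID matched the reference table held, so coordinates and sequences were not used here.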

Additional observations from a re-analysis of the deposited data

How the results depend on the processing

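Counts of genes lower than VM in slful stayed within 1.5 times their values under every alternative, at 166 to 186 for TM, 154 to 189 for FIM, 175 to 190 for SFIM and 146 to 165 for all 3 stages over changes of the added value, filter, weights, libraries fitted, centring and model. With single replicates left out they were 142 to 192, 115 to 190, 177 to 189 and 110 to 170. The count from slful TM to FIM moved: 50 genes became 96 without group weights, 32 with voom on recovered reads, and 4 to 73 with single replicates left out. A fit with a replicate block gave 175, 172, 189 and 47 genes for TM, FIM, SFIM and TM to FIM. It gave 160 at all 3 stages. Same-numbered libraries of slful had correlations of -0.125 to 0.142 in their deviations from the group means. These were not compared with differently numbered libraries, so whether the numbers pair the samples was not settled. Without all slful FIM libraries, an alternative chosen after seeing the data, 177 genes fell at TM and 188 at SFIM.

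Of the 200 genes, 121 were also taken when VM was set against the mean of the later stages, 88 when it was set against SFIM alone, 140 to 189 with another floor or added value, and 164 to 199 with 1 WT library left out. Of 68 results for 17 named genes, 50 were called and 37 of these kept the call under all alternatives; of 1530 alternative values 61 lost a call, 18 gained one and 0 changed direction with a call. Depth limits low values: at TM and FIM the shallowest libraries held 12.93 and 15.46 M reads, M standing for mega.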
